A study of Mus musculus with 2 samples.

Results

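Large vessel endothelial cells line the arteries and veins of the lung, as opposed to its capillaries. They were picked droplet by droplet from raw counts of unique molecular identifiers (UMIs, the tags that count single RNA molecules). A droplet was kept when it held 500 or more UMIs and 200 or more genes, with no more than 10% of its UMIs mitochondrial. A kept droplet was taken as endothelial when the UMIs of Cdh5, Pecam1, Cldn5 and Egfl7 summed to at least 3 and those of Ptprc, Epcam and Col1a2 to 0, and as large vessel when Vwf and Gja5 together reached at least 2. Of 15695 kept droplets, 337 met the rule, of which 138 held at least 1 Gja5 UMI and are called arterial, while the other 199 are called venous or mixed. Because these genes chose the cells, their levels are given as a description and nothing below rests on them.

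The cells came from 2 droplet libraries of whole lungs of female BALB/c mice 9 to 10 weeks old, which had received intravenous injections for 3 weeks. The group named TCM received tumor conditioned media, that is DMEM without serum in which cut pieces of primary 4T1 mammary tumors had been kept, and the group named CM received control media. No source used here gives how many mice went into a library. With 1 library per group, treatment and library cannot be told apart, no test between groups was possible, and every interval below is a 95% interval that covers counting error only.

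Arteries and veins differ in pressure, oxygen and flow, and their endothelium carries different programs. Arterial endothelium uses Notch ligands, ephrin B2 and connexins 37 and 40, while venous endothelium relies on the transcription factor Nr2f2 and carries much of the machinery by which leukocytes leave the blood. Both store von Willebrand factor, the adhesive protein that catches platelets, and both regulate clotting through thrombomodulin and tissue plasminogen activator. Capillary endothelium of the lung is divided into general capillary cells and aerocytes, the cells that face the air sacs.

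In CM, 176 of 1776 endothelial droplets were large vessel cells (9.91%, exact binomial interval 8.56% to 11.4%), and in TCM, 161 of 1642 (9.81%, 8.41% to 11.3%). The arterial share of them was 40.3% in CM (71 cells, 33.0% to 48.0%) and 41.6% in TCM (67 cells, 33.9% to 49.6%). Both shares therefore differed between the libraries by less than their counting intervals. With every droplet thinned to 1000 UMIs, large vessel cells made up 6.44% of CM and 6.17% of TCM endothelial droplets, and the arterial share was 29.9% and 25.0%. The rule reads few molecules per cell, so a share under it depends on depth. A median large vessel cell held 3139.5 UMIs and 1638.5 genes in CM and 3751 UMIs and 1832 genes in TCM.

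The TCM library was the deeper one, with 36648719 UMIs over all barcodes against 31944151 in CM, and the sums over large vessel cells were 732144 and 637790. Levels are therefore given as UMIs of a gene per 100000 UMIs summed over the cells of a class. Kept droplets of the libraries shared 93 barcodes, and none of these barcodes marked a large vessel cell in both (0 cells); 1 large vessel cell of CM and 3 of TCM had a barcode that was kept in the other library. Free RNA, estimated from droplets with 1 to 50 UMIs, came to 196 UMIs in a CM large vessel cell (5.41% of its UMIs) and 252 in a TCM one (5.54%). These are medians over 7 genes of other cell types, which ranged from 124 to 303 in CM and from 199 to 74051 in TCM.

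Vwf, the gene of von Willebrand factor, had a median of 5 UMIs per large vessel cell in each library and reached 32 in CM and 40 in TCM. Gja5, which encodes connexin 40, reached 8 and 9 UMIs. At the edge of the rule, 34 CM and 34 TCM cells held exactly 2 Vwf and Gja5 UMIs. Just outside it, 117 CM and 102 TCM endothelial droplets held exactly 1, of which 42 and 35 had a Gja5 UMI and 75 and 67 a Vwf UMI. The norepinephrine transporter gene Slc6a2, which the rule did not read, had a UMI in 4 CM and 1 TCM cells just inside and in 7 and 4 droplets just outside.

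**Figure D1:**
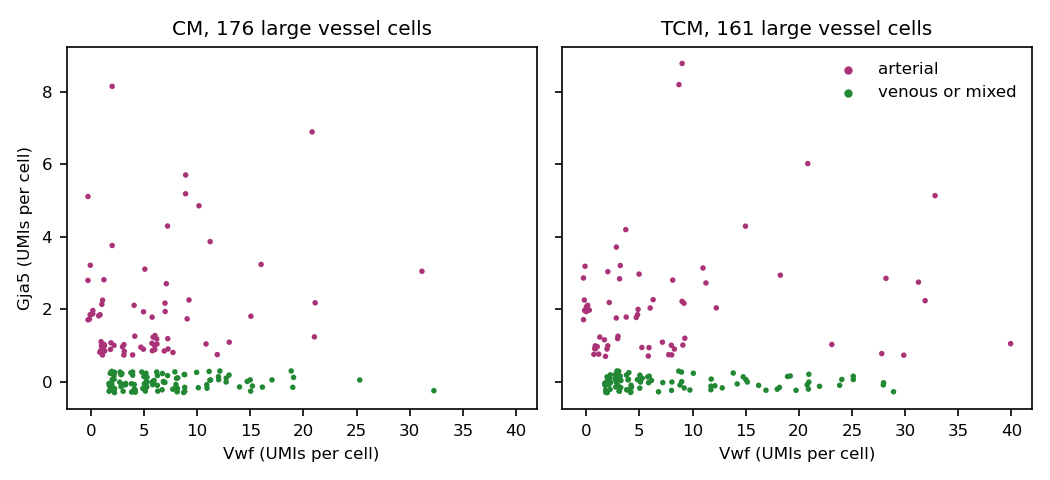
Vwf UMIs (horizontal axis) and Gja5 UMIs (vertical axis) of each of the 176 CM (left) and 161 TCM (right) large vessel cells, with 1 point per cell moved slightly so that equal values can be seen. Arterial cells hold 1 or more Gja5 UMIs and venous or mixed cells none, by the rule, and Vwf reaches 32 UMIs in CM and 40 in TCM.

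Genes the rule had not read were then used to describe the label. In this comparison of large vessel cells with the 1483 CM and 1379 TCM endothelial droplets that held no Vwf or Gja5 UMI, 6273 genes had at least 100 UMIs over both classes in each library. Of these, 67 (1.07%) were at least 2-fold higher in large vessel cells in both libraries and 66 (1.05%) at least 2-fold lower. Of the 14 arterial markers that passed, 5 were at least 2-fold higher and 0 lower, and of the 9 venous markers that passed, 7 were higher and 0 lower. The 10 general capillary markers gave 0 higher and 2 lower, and the 10 aerocyte markers 0 higher and 4 lower. All these are descriptions, since the cells were separated by their own counts and the gene lists were chosen with earlier results of these data known.

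The rule for named genes gave the 12 genes that stood furthest above the other endothelium in both libraries. Olfm2, a secreted olfactomedin protein, was at 15.2 UMIs per 100000 in CM and 14.3 in TCM, against 0.0706 and 0.0209 in the other endothelial droplets. Slc6a2 stood at 18.0 and 27.5 against 0.306 and 0.0838, a log2 ratio of 5.88 in CM (5.05 to 6.83) and 8.36 in TCM (6.98 to 10.25). Selp, which encodes P-selectin and is stored with von Willebrand factor, was at 6.11 and 8.06, with 71.8% of its CM and 74.6% of its TCM UMIs in 5 cells, while the other endothelial droplets held 0 UMIs in CM and 6 in TCM. With that 0 taken as 3 UMIs over the class, Selp was higher by a log2 ratio of at least 6.44 in CM, and in TCM its log2 ratio interval was 4.80 to 7.51.

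Vcam1, the adhesion molecule that binds integrins of leukocytes, was at 21.3 UMIs per 100000 in CM and 32.6 in TCM, against 1.04 and 1.19 elsewhere in the endothelium, with 55.9% and 53.1% of its UMIs in 5 cells. Cpe, a carboxypeptidase, stood at 21.5 and 18.8 against 0.424 and 0.293. Atp13a3, a polyamine transport ATPase, was at 32.9 and 49.2 against 1.41 and 1.36. Cytl1, a small secreted protein, belonged to the same group with 45.6 and 24.4 against 2.57 and 1.40. The other genes so named were Cthrc1, Cdh13, Pdlim3, the tyrosine kinase gene Bmx and Fam107a, with log2 ratios between 3.64 and 5.13 over both libraries. Of the Cdh13 UMIs in large vessel cells, 64.0% in CM and 72.1% in TCM lay in 5 cells.

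All of these capillary markers were detected in large vessel cells of both libraries, and most were not 2-fold lower in both. The general capillary list summed to 716 UMIs per 100000 in CM and 897 in TCM, against 893 and 1042 there, and the aerocyte list to 269 and 412 against 629 and 746. Of the 176 CM cells 97 held at least 2 UMIs of Gpihbp1, the capillary anchor of lipoprotein lipase (55.1%), and of the 161 TCM cells 105 did (65.2%). The level of Gpihbp1 was 123 UMIs per 100000 in CM and 157 in TCM, against 170 and 207 in the other endothelial droplets and 1.99 and 3.56 in lymphocytes. Car4, a carbonic anhydrase of aerocytes, was at 27.9 UMIs per 100000 in CM and 57.1 in TCM, against 120 and 149 in the other endothelial droplets. At least 3 UMIs of Car4 and Ednrb together were found in 30 CM and 21 TCM cells. The list of 8 lymphatic genes summed to 112 UMIs per 100000 in CM and 136 in TCM. Of these genes, Prox1 had 0 UMIs in CM and 2 in TCM, Ccl21a 0 and 1, Mmrn1 1 and 0, and Reln 0 and 0. Flt4, Pdpn and Thy1 had UMIs in both libraries. Lyve1, a hyaluronan receptor best known from lymphatic vessels, was nevertheless at 105 and 129 UMIs per 100000, against 50.6 and 57.6 in the other endothelial droplets.

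Arterial and venous cells were next set against each other within each library, also as a description, since Gja5 had divided them. Of 3523 genes with at least 30 UMIs in the large vessel cells of each library, 31 (0.88%) were at least 2-fold higher in the arterial cells in both libraries and 61 (1.73%) in the venous or mixed cells. Of the 15 arterial markers that passed, 7 were higher in arterial cells and 0 in venous or mixed cells. The 11 venous markers that passed gave 0 and 8. Thus a single Gja5 molecule divided the cells in the direction of both marker lists in each library.

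Slc6a2, a venous marker, followed the division. A Slc6a2 UMI was found in 44 of 105 venous or mixed cells of CM (41.9%) and 41 of 94 of TCM (43.6%), but in 1 of 71 arterial cells (1.41%) and 1 of 67 (1.49%), and in 0.0830% and 0.261% of lymphocytes. The median depth was 2896 and 3758.5 UMIs in venous or mixed cells, 3604 and 3751 in arterial cells and 2195 and 2224 in lymphocytes. Prss23, a serine protease gene, was at 24.8 and 47.3 UMIs per 100000 in arterial cells and at 219 and 210 in venous or mixed cells. Nr2f2, the transcription factor of venous identity, was at 2.87 and 0.639 in arterial cells and at 10.0 and 8.83 in venous or mixed cells. Ackr1, a chemokine-binding receptor of venules in many organs, had no UMI in either library (0 in 176 cells and 0 in 161).

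Several members of the arterial list were also among the 12 genes named by the rule. Dll4, the arterial Notch ligand, was at 27.6 UMIs per 100000 in CM and 34.2 in TCM in arterial cells, against 8.07 and 8.11 in venous or mixed cells. Its target Hey1 stood at 31.2 and 38.7 against 13.1 and 16.5, and Efnb2, which encodes ephrin B2, at 68.2 and 88.5 against 30.6 and 39.8. Cxcl12, the chemokine ligand of Cxcr4, was at 520 and 573 against 179 and 188. Its log2 ratio of arterial over venous or mixed was 1.54 in CM (1.40 to 1.67) and 1.61 in TCM (1.49 to 1.73).

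Matrix genes were divided unevenly. Fbln2, the gene of the elastic fibre protein fibulin 2, was at 16.2 and 12.5 UMIs per 100000 in arterial cells and 3.34 and 2.39 in venous or mixed cells. Mgp, an inhibitor of calcification, was at 83.3 and 82.7 against 30.9 and 12.2. Eln, the elastin gene, was at 24.0 and 26.5 in arterial and 29.2 and 31.0 in venous or mixed cells, and its log2 ratio interval held 0 in both libraries (-0.75 to 0.17 in CM, -0.64 to 0.18 in TCM). Plat, the gene of tissue plasminogen activator, stood at 14.7 and 41.9 against 5.29 and 13.4. The rule for named genes also gave Mecom, Esm1, Fam3c, Cmklr1, Efna1, Abi3bp and Pcsk5, with log2 ratios between 1.34 and 2.73.

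On the venous side the 12 leading genes were chosen after their values had been seen. Fabp4, a fatty acid binding protein gene, had 1 UMI in CM arterial cells and 0 in TCM ones, against 102 and 58 UMIs in venous or mixed cells. Lrg1, a secreted glycoprotein that acts on TGF-beta signalling, was at 0.359 and 4.15 UMIs per 100000 in arterial cells and at 32.9 and 52.5 in venous or mixed cells. Ptgs1, which encodes cyclooxygenase 1, stood at 1.08 and 2.24 against 15.03 and 19.8, and Lbp, the lipopolysaccharide binding protein gene, at 0 and 2.88 against 14.2 and 23.1. The epithelial genes Krt7 and Ager were in the same group. Of all Ager UMIs in large vessel cells, 83.2% in CM and 97.6% in TCM lay in 5 cells. The AT1 (alveolar type 1) marker list, of which Ager is a member, summed to 89.0 and 68.0 UMIs per 100000 in arterial cells and to 270 and 213 in venous or mixed cells. The venous group therefore holds droplets with RNA of another cell type, and so does the arterial group. At least 3 UMIs of the AT1 genes Ager, Rtkn2 and Aqp5 were held by 3 CM and 1 TCM arterial cells and by 7 and 3 venous or mixed cells. The erythroid list summed to 5.02 and 1333 UMIs per 100000 in arterial cells, against 4.45 and 0.716 in venous or mixed cells. The part of such droplets in the other arterial and venous values was not tested.

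**Figure D2:**
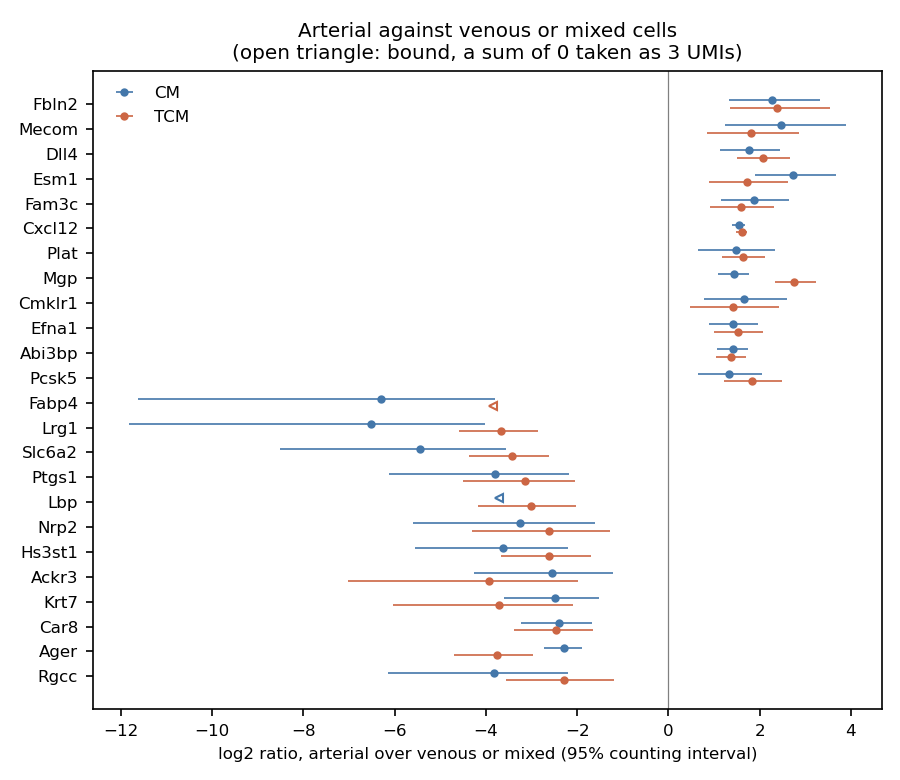
Log2 ratio of arterial over venous or mixed cells (horizontal axis) for the named genes (rows), with 1 point per library and 95% counting intervals as bars. Genes from Fbln2 to Pcsk5 lie above 0 and genes from Fabp4 to Rgcc below 0 in both libraries, and open triangles mark bounds for a sum of 0 taken as 3 UMIs.

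TCM was then compared with CM in large vessel cells. Of 6233 genes with at least 30 UMIs over both libraries in large vessel cells, 134 (2.15%) were at least 2-fold higher in TCM and 110 (1.76%) at least 2-fold lower. The median log2 ratio over all of them was 0.02. The named genes are the 12 at each end with the largest ratio after allowing for counting error, among genes at least 2-fold apart and seen in at least 10 cells of the higher library. In general capillary cells and aerocytes, which took no part in the choice, 10 and 10 of the 12 higher genes were above 0, and 5 and 8 of the 12 lower genes below 0. The median over all genes tested was 0.01 in general capillary cells and 0.00 in aerocytes, so all genes divided about evenly around 0. At least 2-fold apart in the same direction there were 7 and 5 of the higher genes and 0 and 1 of the lower genes.

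Cyp26b1, the gene of an enzyme that breaks down retinoic acid (chromosome 6, 84571414 to 84593908, minus strand, GRCm38), was at 7.996 UMIs per 100000 in CM and 31.4 in TCM. Its 51 CM UMIs lay in 25 of 176 cells and its 230 TCM UMIs in 78 of 161. The log2 ratio was 1.97 (1.53 to 2.44). The CM level was mostly arterial, where Cyp26b1 stood at 15.1 in CM (Poisson interval 10.9 to 20.4) and 38.3 in TCM (31.8 to 45.8). In venous or mixed cells it was at 2.51 in CM (1.15 to 4.76) and 26.2 in TCM (21.6 to 31.6), so that the log2 ratio was 1.35 in arterial (0.83 to 1.89) and 3.39 in venous or mixed cells (2.41 to 4.56). The intervals of the subsets did not overlap, but a difference between them was not tested.

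The same gene was at 1.42 UMIs per 100000 in CM and 22.9 in TCM in general capillary cells and at 0.535 and 13.6 in aerocytes. Arterial cells thus held the highest level of these 4 classes in each library and, with 1.35, the lowest ratio. At 1000 UMIs per cell a Cyp26b1 UMI was found in 5.95% of CM and 19.0% of TCM large vessel cells (14.2% and 48.4% at full depth). Of lymphocytes, which should lack the gene, 0 of 1027 held one in CM, which allows a share of up to 0.292%, and 0.472% in TCM (0 and 0.782% at full depth). 

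Other genes of the retinoic acid list did not share that size. Of 9 with enough UMIs, 5 lay above 0 and 4 below, Cyp26b1 was the only one at least 2-fold apart, and the median log2 ratio was 0.00. Dhrs3, which reduces retinaldehyde, was at 3.29 in CM and 4.92 in TCM with a log2 ratio of 0.58 (-0.24 to 1.43). Rara, a retinoic acid receptor gene, was at 6.74 and 7.38, and Aldh1a1, which makes retinoic acid, at 3.61 and 2.46. All 3 intervals held 0.

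Serpina3i, a member of the mouse cluster of serine protease inhibitors (chromosome 12, 104263122 to 104269372, plus strand), was at 7.21 UMIs per 100000 in CM and 29.1 in TCM. It had 46 UMIs in 36 CM cells and 213 in 81 TCM cells, with a log2 ratio of 2.01 (1.55 to 2.50). Arterial cells gave 2.10 and venous or mixed cells 1.95, while general capillary cells gave 1.18 and aerocytes 1.33. A UMI was found in 20.5% of CM and 50.3% of TCM cells, and in 5.36% and 24.7% at 1000 UMIs per cell, against 0.487% and 0.787% of lymphocytes at that depth. Near copies of this gene lie beside it, so reads may have been split between them and its level is uncertain.

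The 250 bases before its start are shown because Serpina3i, the gene with the highest lower bound of the ratio, was the only one of the 8 of 12 higher genes found in the promoter table whose window held any of 3 searched motifs. The sequence is from RefSeq, GRCm38.p6, chr12:104262872-104263121, plus strand, 5′ to 3′, with the motif letters in capitals.
Serpina3i upstream: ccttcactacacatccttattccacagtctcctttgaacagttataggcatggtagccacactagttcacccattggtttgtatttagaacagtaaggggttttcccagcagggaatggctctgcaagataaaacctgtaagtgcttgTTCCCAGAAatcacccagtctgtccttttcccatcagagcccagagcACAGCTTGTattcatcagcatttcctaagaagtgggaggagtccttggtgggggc
The first stretch in capitals matches TTCNNNGAA, the palindrome bound by STAT factors, and the second matches ACANNNTGT, the core of the glucocorticoid receptor site. Either motif pattern is its own reverse complement, so 1 search covered both strands, and the 2 matches do not overlap. Of 32851 promoter windows of RefSeq, 7.02% held TTCNNNGAA and 5.84% ACANNNTGT. AGGTCA, a motif of nuclear receptors, searched on both strands, was in 14.0% of all windows and in 0 of the 8. The matches are a description of letters and no evidence of binding.

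Plat was at 9.41 UMIs per 100000 in CM and 25.5 in TCM, with 60 UMIs in 33 cells and 187 in 54. Its log2 ratio was 1.44 (1.01 to 1.89), with 1.51 in arterial and 1.34 in venous or mixed cells. In general capillary cells Plat was at 2.67 in CM and 1.86 in TCM, and in aerocytes at 2.32 and 2.08, with log2 ratios of -0.52 and -0.16. At 1000 UMIs per cell, 8.93% of CM and 19.6% of TCM large vessel cells held a Plat UMI (18.8% and 33.5% at full depth), against 0 of 1027 and 0 of 635 lymphocytes, where a count of 0 allows up to 0.292% and 0.472%. At full depth 0.166% of CM and 0.652% of TCM lymphocytes held one. Plat lies on chromosome 8, 22757727 to 22782844, plus strand.

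Iigp1, an interferon-inducible GTPase gene, was like Plat higher by its summed level in TCM large vessel cells and not in general capillary cells or aerocytes. It was at 7.68 UMIs per 100000 in CM and 19.3 in TCM in large vessel cells, with a log2 ratio of 1.33 (0.85 to 1.83). In general capillary cells it was at 25.1 and 23.1, and in aerocytes at 15.7 and 14.9. The TCM level of large vessel cells thus lay among the capillary levels, and their CM level below them.

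Fkbp5 and Zbtb16, classical targets of the glucocorticoid receptor, were also among the 12. Fkbp5, a co-chaperone of that receptor, had 5 UMIs in 5 CM cells and 32 UMIs in 27 TCM cells, a log2 ratio of 2.48 (1.11 to 4.20). Zbtb16, a zinc finger transcription factor gene, was at 7.68 UMIs per 100000 in CM and 19.9 in TCM, and its log2 ratio was 1.38 (0.90 to 1.87). It was higher in arterial cells (7.54 and 23.3), venous or mixed cells (7.80 and 17.4), general capillary cells (13.5 and 22.4) and aerocytes (10.8 and 18.8), while lymphocytes were at 1.34 and 1.47. St3gal1, a sialyltransferase gene, stood at 3.92 and 13.1, a log2 ratio of 1.74 (1.09 to 2.44), and Mlec, a lectin gene of the endoplasmic reticulum, at 3.61 and 10.2.

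The remaining 4 of the 12 carry a limit each. S100a9, a calprotectin subunit gene of neutrophils, was at 3.92 and 12.8 UMIs per 100000. Free RNA held it at 96.0 in CM and 437 in TCM and lymphocytes at 94.04 and 223, and at 1000 UMIs per cell 0.595% and 15.8% of large vessel cells held a UMI, against 2.24% and 28.2% of lymphocytes (6.25% and 42.9% against 4.23% and 50.7% at full depth). Free RNA made up an estimated 5.41% of the UMIs of CM and 5.54% of those of TCM large vessel cells. Its part in the ratio of S100a9 was not tested beyond an alternative that subtracted free RNA. Ly6c2, a surface protein gene, was at 27.8 and 67.6, but it has a near copy, Ly6c1. Of the TCM UMIs of Bpgm, 68.6% lay in 5 cells. Acta2, a smooth muscle actin gene, had 6 and 30 UMIs, and without droplets that held UMIs of other cell types its log2 ratio was 0.28 (-1.37 to 2.05).

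The 12 lower genes were concentrated in few cells. Between 56.1% (Clec3b) and 91.1% (Lgals3) of their CM UMIs lay in 5 of the 176 cells. For the higher genes the same share in TCM was at most 45.4% except for Bpgm and Acta2, which had 68.6% and 76.7%. Lyz2, the lysozyme gene of macrophages and AT2 cells, was at 75.9 UMIs per 100000 in CM and 22.4 in TCM (484 and 164 UMIs), and 315 of the CM UMIs lay in 1 cell. Krt19 and Cldn18, epithelial genes, stood at 5.49 and 1.37 and at 21.2 and 10.2. S100a6 was at 63.3 and 26.8, with 79.2% of its CM UMIs in 5 cells.

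UMIs of other cell types differed between the libraries in both directions. At least 3 UMIs of the AT1 genes Ager, Rtkn2 and Aqp5 were held by 10 CM and 4 TCM large vessel cells, and at least 3 lymphocyte UMIs by 8 and 3. The macrophage list of 5 genes summed to 567 UMIs in CM and 165 in TCM, of which Lyz2 gave 484 and 164, and 3 of its genes were at 0 in TCM. The megakaryocyte list summed to 110 UMIs in 2 CM cells and 30 in 7 TCM cells, and the erythroid list to 30 in 6 and 4177 in 3. The neutrophil list summed to 58 UMIs in 21 CM cells and 195 in 103 TCM cells, and the smooth muscle list to 42 in 25 and 104 in 30. Mesothelial genes were at 0 in both. Without the 20 CM and 13 TCM droplets that held such UMIs, 11 of the 12 higher genes were still at least 2-fold higher, with a log2 ratio of 1.75 for Cyp26b1 and 1.30 for Plat, but 6 of the 12 lower genes were still at least 2-fold lower and Lyz2 was at 0.77 (0.33 to 1.23). Only 10 of the higher and 5 of the lower genes still had 30 UMIs there, and Krt19, with 1 UMI in each library, had no ratio.

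S100a6 was at -1.24 with those droplets and -1.40 without them, but at -0.62 with a minimum of 3 Vwf and Gja5 UMIs, -0.79 with 1 UMI of Ptprc, Epcam or Col1a2 allowed, -0.70 as the mean over cells and -0.94 with cells thinned to 1000 UMIs. Clec3b, a plasminogen-binding protein gene, was at 8.94 UMIs per 100000 in CM and 3.28 in TCM, with a log2 ratio of -1.45, of -1.67 without those droplets and of -0.38 with 1 UMI of Ptprc, Epcam or Col1a2 allowed. Its ratio was -2.82 in arterial (-4.22 to -1.66) and 0.16 in venous or mixed cells (-0.96 to 1.33). Ppp1r14a, an inhibitor of myosin phosphatase, was at -1.50 in all and -1.22 without those droplets. The others so named were Laptm5, Trf, Lgals3, Clic3, Cox4i2 and Pi16, between -2.03 and -1.37. Cox4i2 is a member of the pericyte list, which summed to 82 UMIs in 19 CM cells and 34 in 11 TCM cells. The fibroblast list summed to 49 UMIs in 16 CM cells and 31 in 8 TCM cells.

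**Figure D3:**
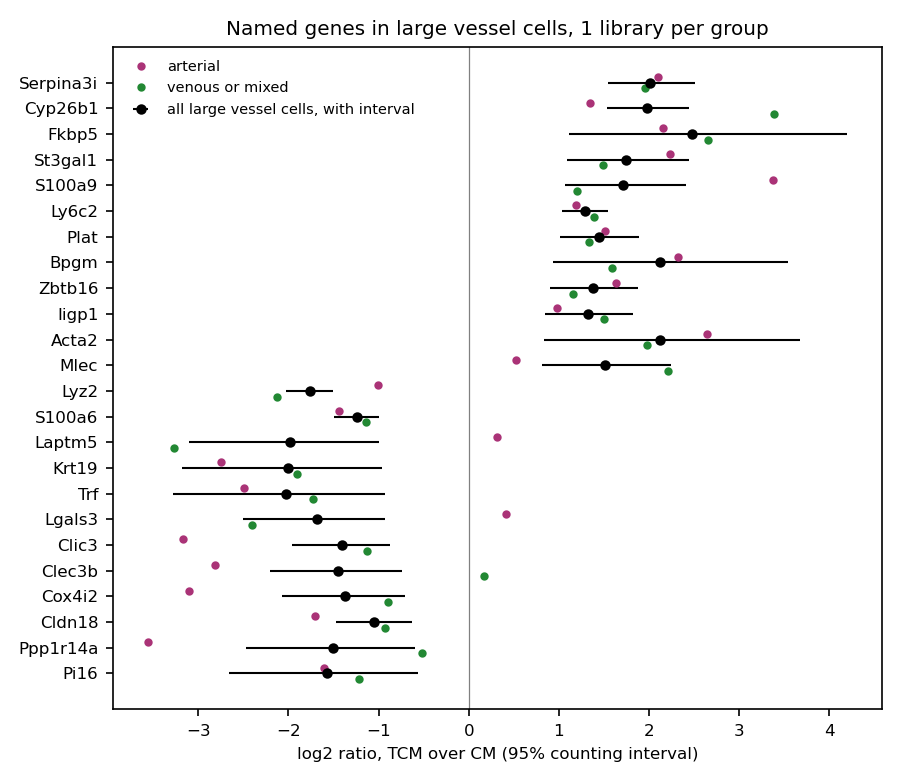
Log2 ratio of TCM over CM (horizontal axis) with 95% counting intervals for the named genes (rows) in all large vessel cells (black points), with the ratios of arterial and of venous or mixed cells as coloured points. The subsets make up the cells in which the genes were chosen. Cyp26b1 has 1.35 in arterial and 3.39 in venous or mixed cells, the latter with 9 UMIs in CM.

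**Figure D4:**
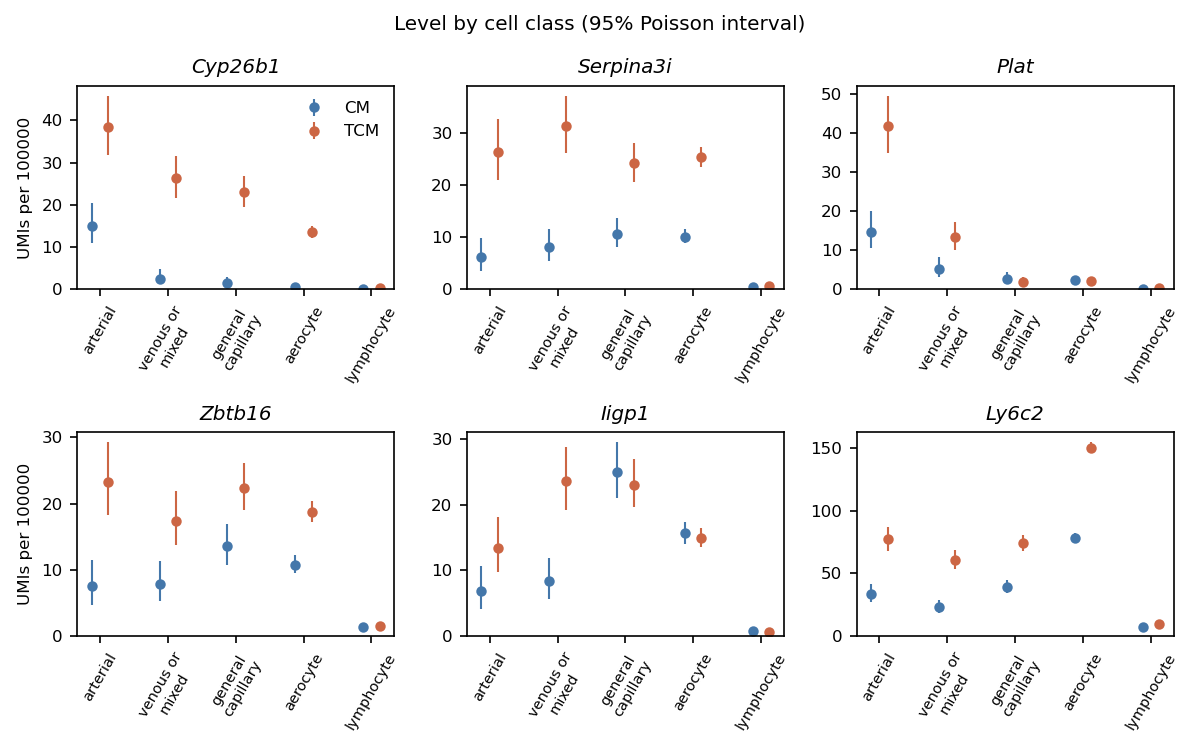
UMIs per 100000 (vertical axes, from 0) of 6 genes that were higher in TCM, in arterial, venous or mixed, general capillary, aerocyte and lymphocyte droplets of CM and TCM, with 95% Poisson intervals. Cyp26b1 is higher in TCM in all 4 endothelial classes, while Plat and Iigp1 are higher in arterial and venous or mixed cells and not in general capillary cells or aerocytes.

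Groups of genes with a known part in vessel walls were described next by their counts and medians, beside the median of 0.02 over all genes tested, of which 52.7% lay above 0 and 2.15% were at least 2-fold higher. In the hemostasis list, 14 of 17 genes had enough UMIs, and 11 lay above 0, with a median of 0.30; Plat, described above, was at least 2-fold higher. Thbd, the gene of the anticoagulant thrombomodulin, was at 56.3 UMIs per 100000 in CM (126 of 176 cells) and 88.8 in TCM (127 of 161 cells), with a log2 ratio of 0.66 (0.47 to 0.85). Procr, the protein C receptor gene, was at 6.74 and 4.51, and its interval held 0 (-1.28 to 0.11).

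The adhesion and chemokine list had the highest median, 0.42 over 14 of 22 genes, with 13 above 0 and 2 at least 2-fold higher (92.9% and 14.3%, against 52.7% and 2.15% of all genes). Icam1, a ligand of leukocyte integrins, was at 59.7 UMIs per 100000 in CM and 94.2 in TCM, and its log2 ratio was 0.66 (0.48 to 0.84), with 1.08 in arterial and 0.44 in venous or mixed cells. Vcam1 was at 21.3 and 32.6, a log2 ratio of 0.61 (0.30 to 0.93). Nfkbia, the inhibitor that NF-kappaB itself induces, stood at 140 and 191, a log2 ratio of 0.45 (0.33 to 0.57). The 2 genes past 2-fold were low: Birc3 had 18 and 43 UMIs, and Sele, which encodes E-selectin, had 7 UMIs in 2 CM cells and 47 in 5 TCM cells.

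Of the 11 heat shock genes, 11 were measured and 11 lay below 0, with a median of -0.32 and a lowest ratio of -0.69. Hsp90ab1 was at 352 UMIs per 100000 in CM and 290 in TCM, and its log2 ratio was -0.28 (-0.37 to -0.19), and Dnaja1 at 84.7 and 62.3, a ratio of -0.44. Hspa1a was at 16.3 and 10.1, a ratio of -0.69 (-1.14 to -0.25), and its near copy Hspa1b at 4.39 and 3.01. None was 2-fold lower (0 of 11). The list's median was -0.45 in general capillary cells and -0.56 in aerocytes, so the same direction was present in the other endothelium. Immediate early genes had 14 of 15 above 0 with a median of 0.27, and Egr1 was at 51.4 and 72.3. Their median was 0.03 without droplets with UMIs of other cell types, 0.09 in general capillary cells and -0.19 in aerocytes.

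Of the glucocorticoid list, 13 of 16 genes were measured, 10 lay above 0 and 3 (Fkbp5, Zbtb16 and Mt1) were at least 2-fold higher (76.9% and 23.1%, against 52.7% and 2.15% of all genes), with a median of 0.23. Zbtb16 and Fkbp5 are the named genes described above. Mt1, a metallothionein gene, was at 6.11 UMIs per 100000 in CM and 14.8 in TCM. Cdkn1a, the gene of a cell cycle inhibitor, was at 98.1 and 151, a log2 ratio of 0.62 (0.48 to 0.77). Per1 and Tsc22d3, which the receptor also induces, were at 6.59 and 6.28 and at 24.1 and 28.1, and both intervals held 0.

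Matrix genes pointed both ways, with 8 above and 10 below 0 of the 18 measured and a median of -0.21. The basement membrane collagen genes Col4a1 and Col4a2 were at 30.6 and 56.3 and at 18.7 and 34.8 UMIs per 100000, with log2 ratios of 0.88 (0.63 to 1.13) and 0.90 (0.58 to 1.23). Bgn, the gene of the proteoglycan biglycan, was at 31.8 and 21.0, a ratio of -0.60 (-0.91 to -0.29). Mgp was at 53.8 and 42.3, and its ratio was -0.01 in arterial and -1.34 in venous or mixed cells. Of its UMIs in large vessel cells, 48.1% in CM and 75.2% in TCM lay in 5 cells. None of the 18 was 2-fold apart (0 higher, 0 lower).

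The arterial and Notch list (16 measured) had a median of 0.17 and 0 genes 2-fold apart. Efnb2 was at 47.0 and 60.6 UMIs per 100000, a log2 ratio of 0.37 (0.15 to 0.58), and Dll4 at 16.6 and 19.3, with an interval that held 0. The BMP and TGF-beta list (15 measured) had a median of -0.00, with Bmpr2, the receptor gene mutated in hereditary pulmonary hypertension, at 88.3 and 113 and its target Id3 at 122 and 99.8. Genes induced by flow (13 measured) had a median of -0.08, and Klf2, the best known of them, was at 195 and 198.

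The VEGF and angiopoietin list (14 measured) had a median of 0.28 and 1 gene at least 2-fold higher, Apln, a peptide ligand gene whose 10 CM and 27 TCM UMIs gave a log2 ratio of 1.23 (0.14 to 2.45). The receptor genes Kdr, Tek and Nrp1 were at 27.9 and 38.1, 50.8 and 70.9, and 33.2 and 47.9 UMIs per 100000, with log2 ratios of 0.45, 0.48 and 0.53 and intervals above 0. Apln and Kdr are also on the aerocyte list, which summed in large vessel cells to 269 UMIs per 100000 in CM and 412 in TCM. The part of aerocyte RNA in the ratios of Apln and Kdr was not tested. Esm1, a proteoglycan gene of arterial cells here, was at 13.5 and 8.06, a ratio of -0.74 (-1.25 to -0.25). Of its UMIs, 59.3% in CM and 47.5% in TCM lay in 5 cells. Interferon genes (24 measured) had a median of 0.17 and Iigp1 as the 1 gene past 2-fold, while Ifitm3 was at 406 and 444.

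Of the lipid uptake list, 9 genes were measured, 5 lay above 0 and the median was 0.02, the same as over all genes. Cd36, the fatty acid translocase gene, was at 82.3 UMIs per 100000 in CM and 127 in TCM, and its log2 ratio was 0.62 (0.47 to 0.78), with 0.61 in arterial and 0.64 in venous or mixed cells. Gpihbp1 had a ratio of 0.35 (0.22 to 0.49). Fabp4 was the 1 gene at least 2-fold lower, with 103 UMIs in 25 CM cells and 58 in 13 TCM cells, a log2 ratio of -1.03 (-1.52 to -0.55). Of its UMIs 64.1% in CM and 62.1% in TCM lay in 5 cells, and at 1000 UMIs per cell 6.55% and 5.70% of cells held one, against 0 of 1027 and 0.315% of lymphocytes. Fabp5, its close relative, was at 7.06 and 3.69.

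**Figure D5:**
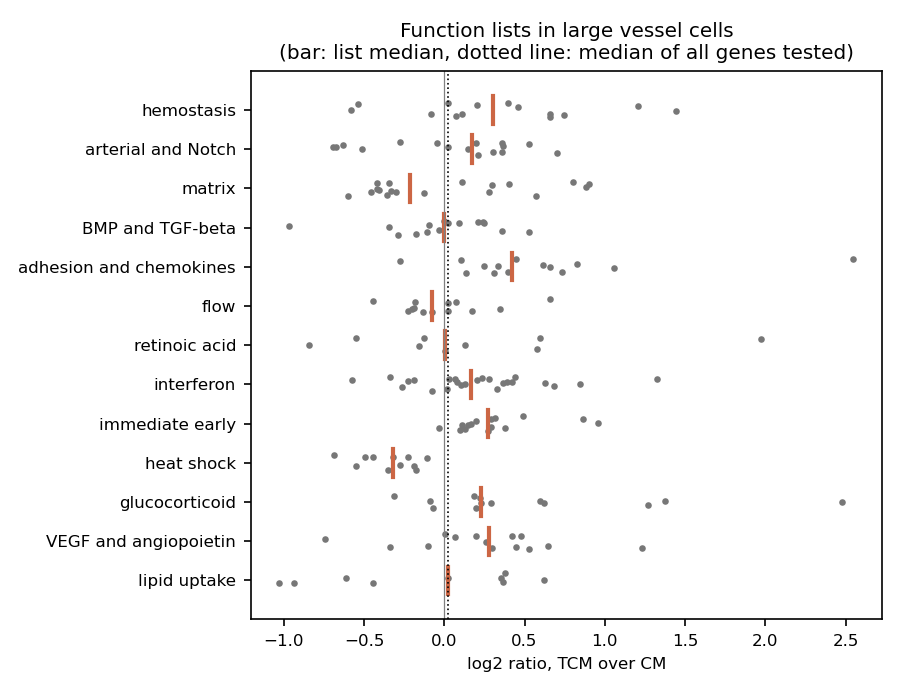
Log2 ratio of TCM over CM (horizontal axis) of each measured gene (points) of the function lists (rows) in large vessel cells, with the list median as a bar and the median over all genes tested, 0.02, as a dotted line. All 11 heat shock genes lie below 0, and 13 of the 14 adhesion and chemokine genes lie above it.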

How the data were processed

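RNA was measured in 1 droplet library per group from whole lungs of mice, and groups were taken from the treatment label. The authors used a 10x Genomics 5' kit and aligned the reads by Cell Ranger to mm10 (GRCm38.p6), per their methods, the submitters' processing notes and the headers of the files, which name version 4. The notes also name Seurat. The deposited files hold raw UMI counts per gene and barcode, with no normalization, for 32286 features and 737280 barcodes per library, of which 8355 in CM and 8156 in TCM reached 500 UMIs. The filters of at least 500 UMIs, at least 200 genes and at most 10% mitochondrial UMIs are those of the study and left 7988 and 7707 droplets.

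From these counts, cells were classed by the stated rule, UMIs were summed per library and class, and a level is a gene's share of those sums per 100000. The cells, gene lists and comparison classes were chosen with earlier results of these data known. General capillary cells had at least 2 Gpihbp1 UMIs and 0 of Car4 and Ednrb, aerocytes at least 3 of Car4 and Ednrb, both with 0 of Vwf and Gja5, and lymphocytes at least 3 of Cd3d, Cd3e, Cd79a, Cd79b and Ms4a1. Intervals are 95% exact: Poisson for levels, Clopper-Pearson for shares and the conditional binomial for ratios. They cover counting error only, and PCR copies are already collapsed to UMIs. For a share of 0 the limit that 3 counts of the total allow is given in place of the interval. A sum of 0 was taken as 3 UMIs over the class and gives a bound. No ratio was formed where both sums were at most 3.

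Genes compared between TCM and CM had at least 30 UMIs over both libraries in large vessel cells. Named genes were the 12 highest and 12 lowest by the interval bound nearest 0 among those at least 2-fold apart with UMIs in at least 10 cells of the higher library, leaving out genes of the rule, mitochondrial and immunoglobulin genes and Gm or Rik models, plus the function lists. For arterial cells and for large vessel against other endothelial cells, they were the 12 highest by the smaller of the CM and TCM log2 ratios. Such a gene needed at least 30 UMIs in each library in the class where it was higher. That class was the large vessel, the arterial or, on the venous side, the venous or mixed cells. Identifiers were matched to GENCODE vM21 (32158 found), and promoter sequences came from RefSeq. Doublets were scored with Scrublet in scanpy 1.11.5. Its automatic threshold marked 0 of 7988 and 0 of 7707 droplets and so failed, no droplet was removed in the main analysis, and the 477 CM and 442 TCM droplets in the top 6% of scores were left out in an alternative. Alternatives also changed the depth, mitochondrial, Vwf and Gja5 and exclusion limits, the scaling, thinning, free RNA and low counts. Scripts ran in Python 3.11.15 with numpy 2.4.6, scipy 1.17.1 and pandas 2.3.3 and were tested on simulated data. A result for 1 gene of the hemostasis list is not reported here.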

Additional observations from a re-analysis of the deposited data

Results flagged for a closer look

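Of the 12 genes named as lower in TCM, 4 had large vessel and capillary ratios with opposite signs and intervals on opposite sides of 0. Lyz2 had a log2 ratio of TCM over CM of -1.76 in large vessel cells and 0.42 in general capillary cells. S100a6 had -1.24 in large vessel cells and 1.05 in general capillary cells. Lgals3 had -1.68 in large vessel cells and 0.69 in aerocytes. Cldn18 had -1.05 in large vessel cells and 0.65 in general capillary cells. With 1 library per group these differences were not tested. In each of the 4 genes at least 79.2% of the CM UMIs of large vessel cells lay in 5 cells, and the part of those cells in the differences was not tested.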

How the results depend on the processing

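No paired analysis was possible because each group held 1 library, and leaving out a library was not possible for the same reason. Of the values that answer a comparison, 41 stayed within their counting interval or within 1.5 times of a count under an alternative and 17 did not. Leaving out droplets with UMIs of other cell types or with aerocyte genes was chosen after seeing the data. The share of large vessel cells among endothelial droplets in CM and TCM was 7.995% and 7.73% with a minimum of 3 Vwf and Gja5 UMIs, 11.9% and 11.4% with at least 1000 UMIs per droplet, and 6.44% and 6.17% after thinning to 1000 UMIs, and 8.22% and 8.53% without droplets with aerocyte genes. The arterial share after thinning was 29.9% and 25.0%. Both shares moved in the same direction in each of these.

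The number of genes at least 2-fold higher or lower in TCM was 33 and 7 with at least 100 UMIs per gene and 692 and 813 with at least 1 UMI, and 560 and 523 with cells thinned to 1000 UMIs, which lowers the depth. The number lower was 60 without droplets with UMIs of other cell types and 166 with the mean over cells. The sign turned for Lyz2, to 0.77 without droplets with UMIs of other cell types and 0.84 without droplets with aerocyte genes, for Cldn18, to 0.54 with a minimum of 3 Vwf and Gja5 UMIs, and for Lgals3 and Ppp1r14a, both to 0.0885 with thinned cells. The cause was not tested beyond what these settings leave out. Of the single genes and list medians, 356 values stayed, 42 moved and 5 turned. Cyp26b1 ranged from 1.75 to 2.18, Serpina3i from 1.80 to 2.49, Plat from 1.30 to 2.01 and the heat shock median from -0.34 to -0.21. A gene with few UMIs in 176 and 161 cells has a wide interval, so a ratio near 0 with such an interval says that no difference was detectable at this depth.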

Other observations

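Some arterial and venous markers were not described above. Tmem252, listed as venous, was at 82.2 UMIs per 100000 in arterial cells of CM and 117 in TCM, against 143 and 221 in venous or mixed cells, and so did not reach a 2-fold difference. Ephb4, the receptor of ephrin B2 and a venous gene in development, was at 12.2 and 20.8 in arterial and 19.2 and 22.7 in venous or mixed cells. Sox17, an arterial transcription factor gene, was at 11.8 and 15.7 against 12.3 and 11.7, and Fbln5 at 23.7 and 16.9 against 21.4 and 16.7. For Sox17 and Fbln5 the intervals of the log2 ratio held 0 in both libraries. Tm4sf1, a membrane protein gene of endothelium, was at 252 and 244 in arterial and 129 and 119 in venous or mixed cells.

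Droplets with exactly 1 Vwf or Gja5 UMI, just outside the rule, held a Cyp26b1 UMI in 5 of 117 cases in CM and 47 of 102 in TCM. Of the cells just inside, with exactly 2, 5 of 34 in CM and 13 of 34 in TCM held one.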
